A study of Arabidopsis thaliana with 18 samples.

Results

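The comparison described here sets 3 whole-seedling samples of an Arabidopsis thaliana line carrying 35S-PLT4-GR against 3 of a line carrying 35S-PLT7-GR, both after induction with dexamethasone (dex). The samples were chosen by their titles and make up 6 of the 18 arrays of the series, which holds 5 such lines. The 35S promoter, active in most cells of the plant, drives in each line a fusion of 1 PLETHORA (PLT) protein with the hormone-binding part of the glucocorticoid receptor (GR). Seedlings that were 4 days old were moved to flasks of liquid medium, about 50 to a flask, and on the following day the PLT4 dex and PLT7 dex groups received 10 µM dex for 6 h. The level without dex comes from 4 mock samples of the PLT4 line, which received the solvent DMSO for 6 h. The submitters call the samples of a group biological replicates. No mock sample of the PLT7 line and no dex-treated sample without a fusion is among the arrays, so a standing difference between the lines, the order in which genotypes were induced (5 min apart) and the response to each factor cannot be told apart in what follows. In whole seedlings, fewer cells of a type and less RNA per cell also cannot be told apart.

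PLT proteins are transcription factors with paired AP2 DNA-binding domains. They are best known for acting in a graded fashion along the root, where they maintain the stem cell niche and promote division, while cells in which their amount falls elongate and differentiate. PLT4 is also called BABY BOOM (BBM) and can induce somatic embryos when overexpressed, and PLT7, also called AINTEGUMENTA-LIKE 7 (AIL7), acts with PLT3 and PLT5 in shoot phyllotaxis and lateral root outgrowth. In a GR fusion the factor stays in the cytoplasm until dex binds the receptor domain, so the transcript of the fusion is present before induction and the protein enters the nucleus afterwards.

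Expression is given on the log2 scale of the deposited values, on which 1 unit is a 2-fold difference and values of about 3 to 4 lie at the dim end of the arrays. Differences are PLT4 dex minus PLT7 dex unless another pair is named, with the standard error (SE) of the limma fit. A gene is called, or said to be higher or lower, at a Benjamini-Hochberg adjusted p under 0.05 over all 21430 probe sets.

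The labels were checked against the transcripts of the PLT genes. The BBM (PLT4) probe set stood at 10.82, 10.67 and 10.78 in PLT4 dex, at 6.67, 6.68 and 6.74 in PLT7 dex, and at 11.42, 11.41, 11.48 and 11.58 in mock. The AIL7 (PLT7) probe set stood at 3.68, 3.64 and 3.75 in PLT4 dex, at 10.91, 11.13 and 10.99 in PLT7 dex, and between 3.40 and 3.65 in mock. Each group therefore carried the transcript of its own fusion, with a difference of 4.06 ± 0.08 (SE) for BBM (adjusted p = 6.66e-12) and of -7.32 ± 0.09 for AIL7 (adjusted p = 4e-14). A probe set reads the fusion and the resident gene together. BBM was lower in PLT4 dex than in mock, by -0.72 (adjusted p = 7.5e-06, but 0.0767 with all 18 arrays in the fit).

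**Figure D1:**
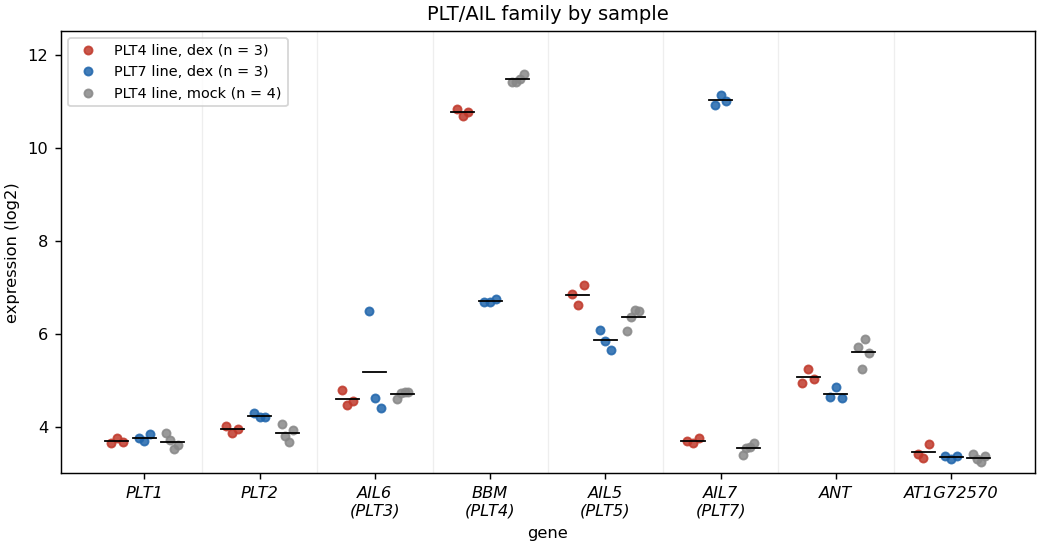
Expression (log2, vertical axis) of the 8 PLT/AIL genes in the 3 PLT4 dex, 3 PLT7 dex and 4 PLT4 mock samples, with 1 point per sample and a line at each group's mean. BBM was near 10.7 in PLT4 dex, 6.7 in PLT7 dex and 11.5 in mock, AIL7 was near 11 in PLT7 dex alone of these 3 groups, and AIL6 stood at 6.49 in 1 of the 3 PLT7 dex samples.

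The other family members differed less. AIL5 (PLT5), which acts in lateral root and shoot organ formation, read 6.86, 6.61 and 7.05 in PLT4 dex, 6.09, 5.84 and 5.65 in PLT7 dex, and 6.07, 6.36, 6.50 and 6.48 in mock. Every PLT4 dex sample was above, and all but 1 PLT7 dex sample (6.09) below, every mock sample, and the lines differed by 0.98 ± 0.15 (adjusted p = 0.000436). PLT2, a main regulator of the root stem cell niche, read 4.01, 3.87 and 3.95 in PLT4 dex and 4.29, 4.22 and 4.22 in PLT7 dex, and the difference of -0.30 ± 0.10 did not pass (adjusted p = 0.0563). PLT1, ANT and AT1G72570 did not pass either, with differences of -0.07, 0.36 and 0.11.

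AIL6 (PLT3) set 1 sample apart. It stood at 6.49 in PLT7 dex replicate 1, where the other two PLT7 dex samples had 4.63 and 4.39, the PLT4 dex samples 4.79, 4.48 and 4.55. AIL6 did not differ between the lines by the test (-0.57 ± 0.39, adjusted p = 0.41). Where a call named below is lost without that sample, this is said. Without it 2644 probe sets were called between the lines, against 3425 with it, and of 124 called genes among the 141 chosen for naming 109 were still called, with no difference of the 124 turning its sign and none moving by more than 0.327. In addition, the library labelled PLT1 replicate 3 had PLT1 at 3.5 and PLT2 at 10.28. It is not among the 10 arrays of the fit and entered only where all 18 arrays were fitted together, with a residual spread that then takes it in.

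The induced lines resembled each other more than either resembled mock. Correlations between samples over all probe sets were 0.995 to 0.997 within PLT4 dex, 0.997 within PLT7 dex, 0.984 to 0.986 between PLT4 dex and PLT7 dex, 0.965 to 0.975 between PLT4 dex and mock, and 0.951 to 0.954 between PLT7 dex and mock. Between PLT4 dex and PLT7 dex, 3425 probe sets were called, which is 16.0% of all, with 1811 (8.45%) higher and 1614 (7.53%) lower in PLT4 dex. At least 2-fold differences were called for 510 probe sets (2.38%), 308 of them higher (1.44%) and 202 lower (0.943%). In the same fit 8048 probe sets (37.6%) were called between PLT4 dex and mock and 9884 (46.1%) between PLT7 dex and mock, 1136 (5.30%) and 2008 (9.37%) of them at least 2-fold. These larger shifts from mock were higher for 2.44% and lower for 2.86% of all probe sets in PLT4 dex, and higher for 3.65% and lower for 5.72% in PLT7 dex. These last 2 comparisons share the mock samples. Over all probe sets the median difference between the lines was -0.0047, and the 5th and 95th percentiles were -0.45 and 0.53. RNA quality did not separate the 2 lines by the 3′ minus 5′ signal of the actin control. This signal ranged from -0.22 to -0.08 in PLT4 dex and from -0.28 to -0.01 in PLT7 dex. For the ubiquitin control it ranged from 0.19 to 0.42 in PLT4 dex, 0.31 to 0.34 in PLT7 dex and 0.12 to 0.25 in mock. By that control every PLT7 dex sample was above every mock sample, and its part in the comparison with mock was not tested.

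**Figure D2:**
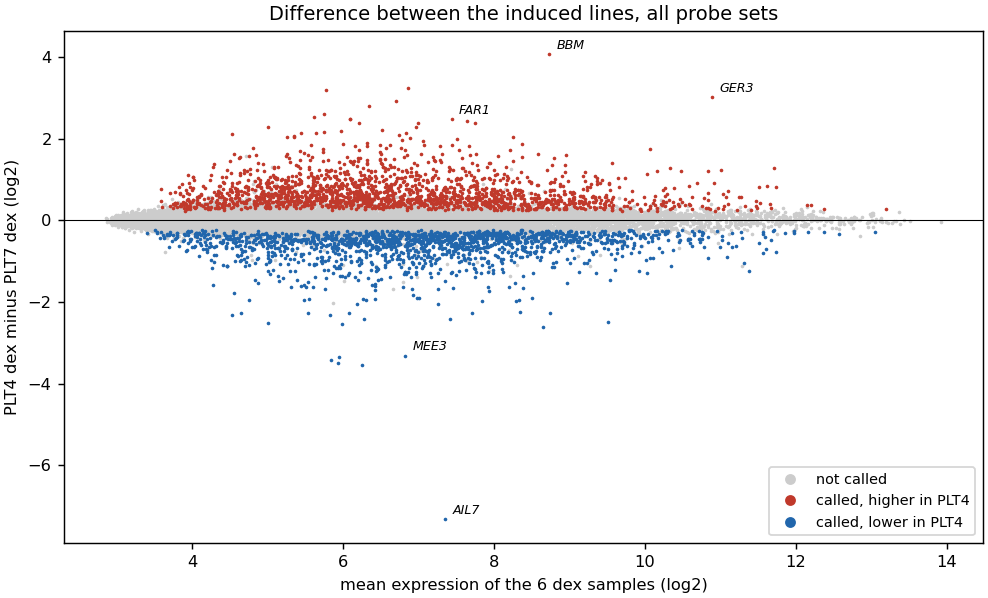
Difference between the lines (PLT4 dex minus PLT7 dex, log2, vertical axis) against the mean expression of the 6 dex samples (log2, horizontal axis), with 1 point per probe set, called ones in red (higher in PLT4 dex) and blue (lower). BBM at 4.06 and AIL7 at -7.32 are the transcripts of the fusions, and called differences lie on both sides of 0 over most of the range of expression.

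The 12 named genes of largest positive difference, all higher in PLT4 dex, included 4 genes of wall proteins, 2 of suberin enzymes and 2 of small heat shock proteins. GER3, a germin-like glycoprotein of the cell wall, stood at 12.45, 12.62 and 12.10 in PLT4 dex, at 9.16, 9.32 and 9.66 in PLT7 dex, and between 11.45 and 12.27 in mock. The difference of 3.01 ± 0.20 was the largest of the 12 named by the rule (adjusted p = 9.01e-07), and PLT4 dex did not differ from mock by the test (0.46, adjusted p = 0.066) while PLT7 dex was lower than mock, at -2.55 (adjusted p = 1.7e-07). GER3 also stood at 7.8 to 9.2 in PLT1 replicates 1 and 2, at 10.2 to 10.6 in the PLT3 line and at 11.9 to 12.1 in the PLT5 line. Those levels were not tested. PELPK1, a repeat-rich wall protein, read 8.38, 7.62 and 8.47 in PLT4 dex and 4.95, 5.83 and 4.93 in PLT7 dex, with 8.30 to 9.36 in mock. It repeated the pattern of GER3, with a difference of 2.92 ± 0.30 between the lines (adjusted p = 2.91e-05), one of -0.61 from mock in PLT4 dex that did not pass (adjusted p = 0.11), and one of -3.53 in PLT7 dex.

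The calcium and phosphate genes of this set were below mock in both lines, though in PLT4 dex not with all 18 arrays (adjusted p = 0.204 for CAX1 and 0.0978 for PAP8), and were lower in PLT7 dex than in PLT4 dex. CAX1, a calcium/proton exchanger of the vacuole, stood at 8.69, 8.90 and 8.96 in PLT4 dex, at 6.69, 6.28 and 6.32 in PLT7 dex, and at 9.49 to 10.12 in mock. PAP8, a purple acid phosphatase, stood at 9.17, 8.90 and 8.74 in PLT4 dex, at 6.55, 6.35 and 6.74 in PLT7 dex, and at 9.38 to 9.73 in mock. The differences were 2.42 ± 0.15 and 2.39 ± 0.14. That the lines do not overlap was a condition for naming in this set. The small heat shock proteins HSP17.6A and HSP17.4, chaperones of misfolded protein, varied more. HSP17.6A read 7.16, 6.38 and 7.59 in PLT4 dex, 4.66, 5.05 and 3.60 in PLT7 dex, and 7.10, 7.09, 8.09 and 6.30 in mock, so that PLT4 dex overlapped mock and PLT7 dex did not. The differences between the lines were 2.61 ± 0.44 for HSP17.6A (adjusted p = 0.0011) and 2.47 ± 0.32 for HSP17.4 (adjusted p = 0.000179). HSP17.6A also stood at 4.6 to 4.9 in PLT1 replicates 1 and 2, at 5.1 to 6.1 in the PLT3 line and at 4.9 to 5.9 in the PLT5 line, levels that were not tested.

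The last gene of this set, BGLU28, a beta-glucosidase linked to sulfur supply, was the least steady of the 12. It read 6.32, 4.41 and 7.70 in PLT4 dex, 3.96, 4.16 and 3.47 in PLT7 dex, and 4.65, 6.06, 7.28 and 5.70 in mock. One PLT4 dex sample at 4.41 lay close to the PLT7 dex samples, the adjusted p of 0.0453 was 0.18 without PLT4 dex replicate 3 and 0.101 without PLT7 dex replicate 1, and the call held in 11 of 19 alternatives. In PLT1 replicates 1 and 2 and the PLT3 and PLT5 samples BGLU28 stood between 3.8 and 4.4, which was not tested.

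**Figure D3:**
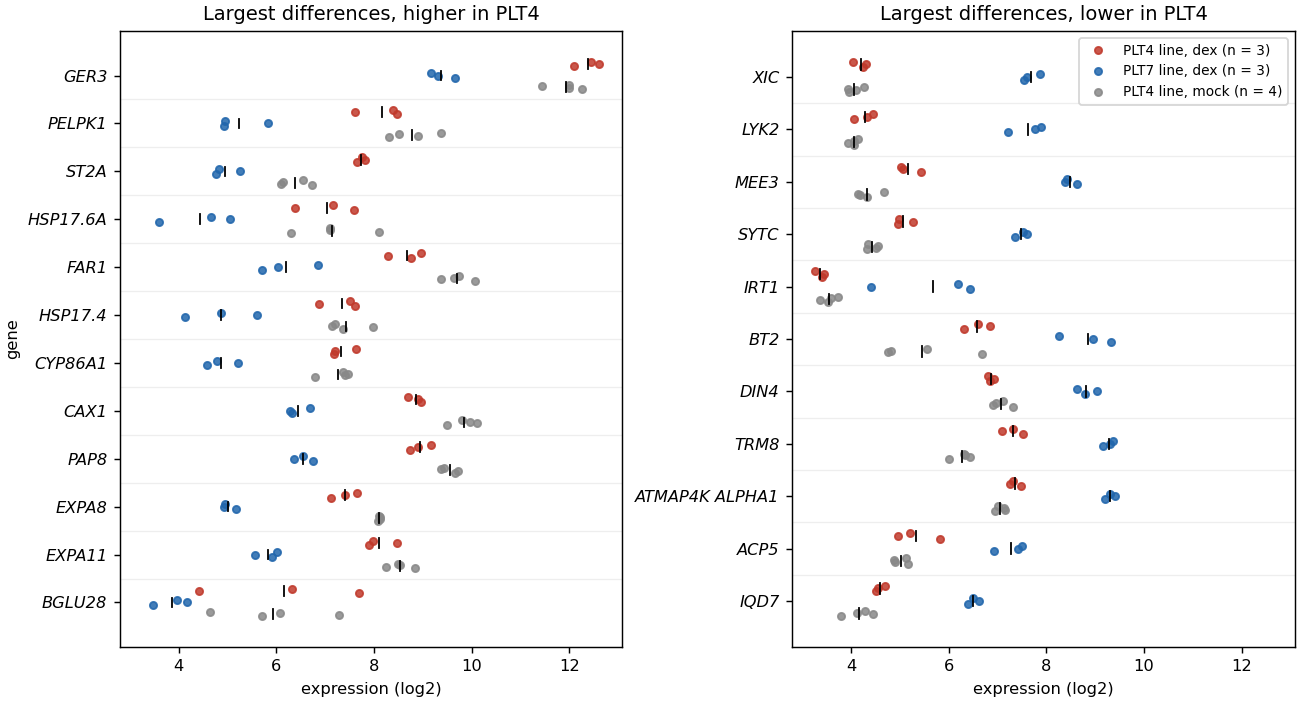
Expression (log2, horizontal axis) of the 12 named genes of largest positive difference (left panel) and 11 of largest negative difference (right panel), with 1 point per sample, the rows of PLT4 dex, PLT7 dex and mock from top to bottom within each gene, and a bar at each mean. In the left panel PLT7 dex is the lowest of these 3 groups for genes such as GER3, CYP86A1 and EXPA8, and other induced lines are not plotted. In the right panel PLT7 dex stands at 7.54 to 7.88 for XIC, where PLT4 dex and mock lie between 3.93 and 4.30.

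Of the 11 genes of largest negative difference shown, all 11 were higher than mock in PLT7 dex. In PLT4 dex, 5 did not differ from mock by the test and 6 were higher than mock, by 0.29 to 1.14, though BT2, ATMAP4K ALPHA1 and IQD7 not with all 18 arrays (adjusted p = 0.136, 0.289 and 0.258). XIC, a class XI myosin that moves along actin filaments, stood at 4.04, 4.30 and 4.25 in PLT4 dex, at 7.88, 7.61 and 7.54 in PLT7 dex, and at 4.27, 3.93, 4.09 and 3.95 in mock. LYK2, a LysM receptor-like kinase, stood at 4.46, 4.33 and 4.06 in PLT4 dex, at 7.89, 7.77 and 7.20 in PLT7 dex, and at 3.94 to 4.13 in mock. Neither differed from mock in PLT4 dex by the test (adjusted p = 0.38 and 0.25), and they differed between the lines by -3.48 ± 0.12 and -3.34 ± 0.15. MEE3, a small MYB-like factor also known as RSM1, was above mock in both lines, with 5.01, 5.07 and 5.43 in PLT4 dex, 8.43, 8.38 and 8.62 in PLT7 dex, and 4.15 to 4.68 in mock. Its difference between the lines was -3.31 ± 0.14 (adjusted p = 4.9e-08). These 3 transcripts were also high in PLT1 replicates 1 and 2 (7.7 to 7.9 for XIC, 8.1 to 8.3 for LYK2 and 8.9 to 9.4 for MEE3) and lower in the PLT3 and PLT5 lines (4.2 to 4.5 and 4.1 to 4.3 for XIC). Those levels were not tested.

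The rest of this set held genes of signalling, the cytoskeleton and metabolism. TRM8, of the family that recruits TON1 to microtubule arrays, stood in 3 separate steps, with 7.32, 7.09 and 7.53 in PLT4 dex, 9.35, 9.31 and 9.16 in PLT7 dex, and 6.00 to 6.43 in mock. SYTC, a synaptotagmin, the kinase gene ATMAP4K ALPHA1 and IQD7, a calmodulin-binding IQD protein, differed by -2.42 ± 0.11, -1.96 ± 0.09 and -1.92 ± 0.14. BT2, a BTB/TAZ protein that responds to nitrate and sugar, stood at 6.61, 6.84 and 6.30 in PLT4 dex, at 8.26, 8.95 and 9.32 in PLT7 dex, and at 5.55, 4.81, 4.74 and 6.68 in mock. It differed between the lines by -2.26 ± 0.42 (adjusted p = 0.00213), with mock itself spread widely. DIN4, a subunit of the dehydrogenase that breaks down branched-chain amino acids, differed by -1.97 ± 0.12. ACP5, an acyl carrier protein, differed by -1.95 ± 0.20 (adjusted p = 2.65e-05, but 0.084 with all 18 arrays).

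The lists of genes by pathway gave the wider pattern. In all, 33 lists held 461 measured genes, and each is described by how many members were called in the fit over all probe sets, to be read against 8.45% higher and 7.53% lower among all probe sets and a median difference of -0.0047. Against mock, 19.7% of all probe sets were higher and 17.9% lower in PLT4 dex, and 24.5% were higher and 21.6% lower in PLT7 dex. The plot of shares by list gives all 33.

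**Figure D4:**
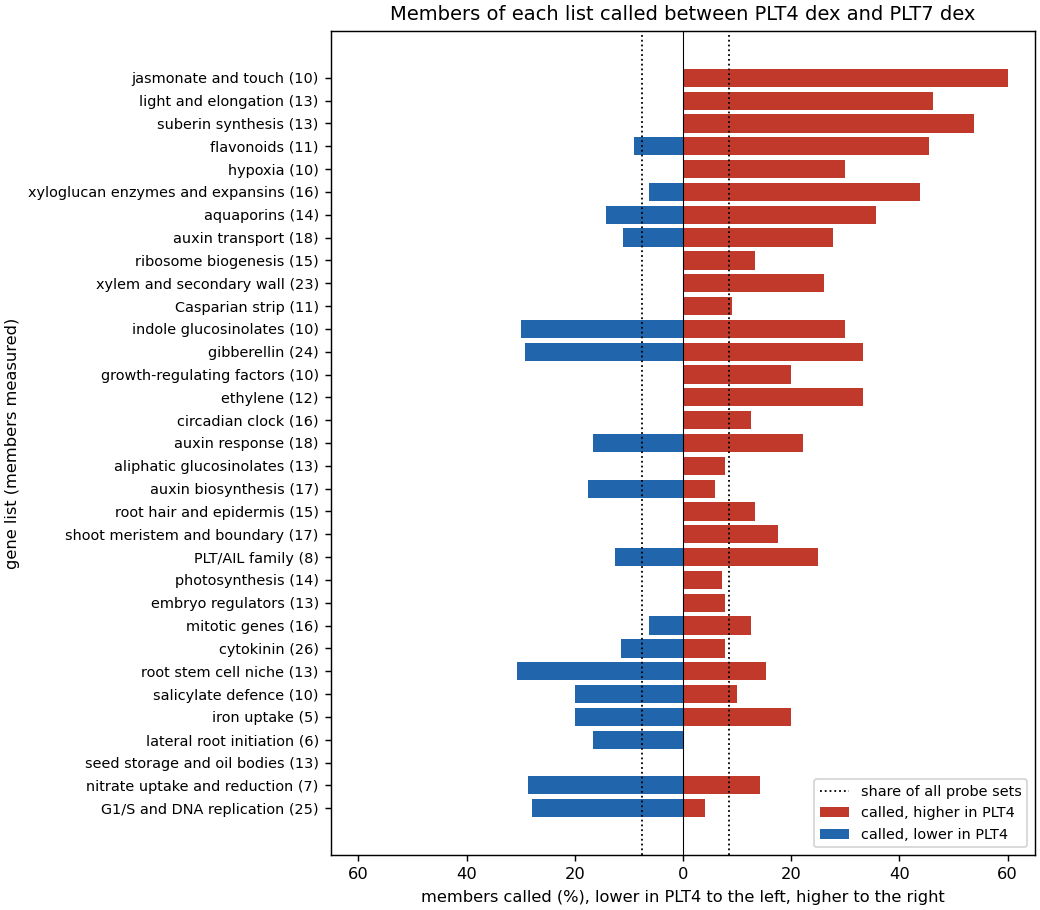
Share of the measured members of each list that was called higher (red, to the right) or lower (blue, to the left) in PLT4 dex than in PLT7 dex, in percent, with the number measured in brackets, lists ordered by their median difference, and dotted lines at 8.45% and 7.53%, the shares among all probe sets. Jasmonate and touch (6 of 10), suberin synthesis (7 of 13) and light and elongation (6 of 13) reach furthest to the right with none lower, and G1/S and DNA replication (7 of 25) has most of its called members on the left.

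Suberin, the fatty barrier polymer of endodermis and periderm, is made from long-chain fatty acids that are elongated, hydroxylated, reduced and esterified. Its genes were higher in PLT4 dex than in PLT7 dex for 7 of 13 measured members, with none lower and a median difference of 0.56. FAR1, a reductase that makes suberin's primary alcohols, read 8.97, 8.29 and 8.76 in PLT4 dex, 6.86, 6.04 and 5.71 in PLT7 dex, and 9.73, 9.65, 9.37 and 10.06 in mock. It was below mock in both lines, with a difference of 2.47 ± 0.26 between the lines (adjusted p = 3.26e-05). CYP86A1, the omega-hydroxylase of root suberin, read 7.62, 7.19 and 7.18 in PLT4 dex, 4.78, 5.22 and 4.58 in PLT7 dex, and 7.36, 7.46, 7.40 and 6.80 in mock. PLT4 dex thus overlapped mock (0.07, adjusted p = 0.8), and PLT7 dex was below mock (-2.39, adjusted p = 2.8e-07), with a difference of 2.47 ± 0.19 between the lines (adjusted p = 3.19e-06). CYP86A1 also stood at 4.0 to 4.4 in PLT1 replicates 1 and 2, at 5.3 to 5.5 in the PLT3 line and at 5.4 to 6.2 in the PLT5 line, levels that were not tested. RWP1, the feruloyl transferase also called ASFT, and the elongase gene KCS2 differed by 1.01 ± 0.16 and 0.86 ± 0.19. GPAT5, an acyltransferase that builds suberin glycerol esters, was at 4.97, 4.97 and 4.95 in PLT4 dex and at 4.15, 4.21 and 4.14 in PLT7 dex. Relative to mock, 7 of the 13 were lower in PLT4 dex and 11 of 13 in PLT7 dex, with medians of -0.38 and -1.10.

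The Casparian strip, the lignin band that seals the endodermis, had 1 of 11 members called, the dirigent-domain gene ESB1, which read 6.39, 6.89 and 5.97 in PLT4 dex, 5.39, 5.25 and 5.60 in PLT7 dex, and 7.51 to 8.16 in mock (1.00 ± 0.22, adjusted p = 0.00751). CASP1, a membrane scaffold of the strip, read 5.60, 6.34 and 5.31 in PLT4 dex and 4.54, 4.63 and 5.54 in PLT7 dex, groups that overlap, and did not pass (adjusted p = 0.0612). Against mock, 10 of the 11 were lower in PLT4 dex and 11 of 11 in PLT7 dex, with medians of -1.12 and -1.24. Of 23 xylem and secondary wall genes, 6 were higher in PLT4 dex and none lower, with a median of 0.17. The laccases IRX12 (LAC4) and LAC17, which polymerise lignin, differed by 0.76 ± 0.18 (adjusted p = 0.0132, but 0.0567 without PLT4 dex replicate 2) and 0.52 ± 0.10, and the metacaspase MC9 of dying vessel cells by 0.55 ± 0.12. FLA11, a fasciclin-like wall glycoprotein, was called at 0.53 ± 0.15 (adjusted p = 0.0279) but not with all 18 arrays (0.26) or without PLT7 dex replicate 1 (0.0551). The cellulose synthases of the secondary wall, IRX1, IRX3 and CESA4, had differences of 0.40, 0.24 and 0.40, and the master regulator VND7 one of 0.17, none of which passed.

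**Figure D5:**
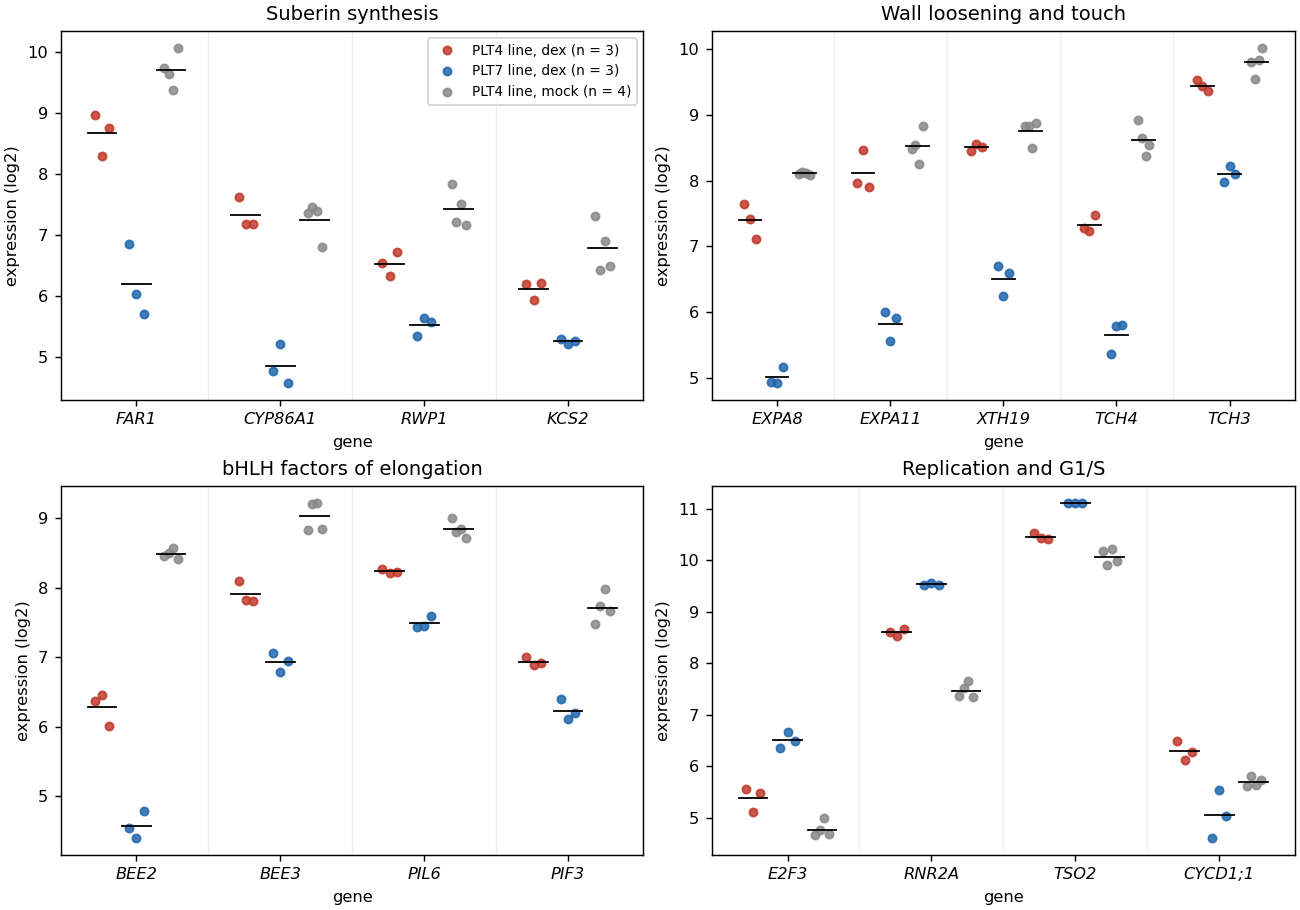
Expression (log2, vertical axis) of members of 4 functional groups in the 3 PLT4 dex, 3 PLT7 dex and 4 mock samples, with 1 point per sample and a line at each mean. The genes plotted were picked from the called members of largest difference in their lists. Those of suberin, wall loosening, touch and bHLH elongation were lower in every PLT7 dex sample than in any PLT4 dex sample. E2F3, RNR2A and TSO2 were higher in every PLT7 dex sample, while CYCD1;1 was highest in PLT4 dex. Members not called, which are not plotted, were 6 of 13 for suberin, 8 of 16 for wall loosening, 4 of 10 for jasmonate and touch, 7 of 13 for light and elongation and 17 of 25 for replication. EXPA5, called lower in PLT4 dex, is not plotted either.

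Wall loosening lets cells expand through expansins, which slip wall polymers apart, and xyloglucan endotransglucosylases, which cut and rejoin their tethers. Of 16 such genes 7 were higher in PLT4 dex and 1 lower, with a median of 0.24. EXPA8 read 7.65, 7.41 and 7.12 in PLT4 dex, 4.94, 4.93 and 5.18 in PLT7 dex, and 8.09 to 8.13 in mock. EXPA11 read 7.97, 8.46 and 7.90 in PLT4 dex, 6.00, 5.56 and 5.91 in PLT7 dex, and 8.25 to 8.83 in mock. The 2 expansins were more than 2 units higher in PLT4 dex (2.38 ± 0.12 and 2.28 ± 0.17), and both lines lay under mock for EXPA8. EXPA8 also stood at 4.9 to 5.0 in PLT1 replicates 1 and 2 and at 7.2 to 7.3 in the PLT3 and PLT5 lines, levels that were not tested. XTH19 read 8.46, 8.56 and 8.51 in PLT4 dex, 6.70, 6.25 and 6.59 in PLT7 dex, and 8.83, 8.82, 8.50 and 8.88 in mock, a difference of 1.99 ± 0.12 between the lines. EXPA1, XTH17 and XTH18 were called higher as well, by 1.62, 1.06 and 0.74, and EXPA5 was the member called lower, at -0.63. With all 18 arrays XTH17 and EXPA5 were not called (adjusted p = 0.0698 and 0.221), nor was XTH18 without PLT7 dex replicate 1 (0.0509).

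The jasmonate and touch list, which joins the synthesis and repression of the wound hormone with genes first found by touching plants, had 6 of 10 members higher in PLT4 dex and none lower, with a median of 0.68. TCH4, a touch-induced xyloglucan enzyme that is also in the wall list, read 7.27, 7.23 and 7.48 in PLT4 dex, 5.36, 5.80 and 5.81 in PLT7 dex, and 8.37 to 8.92 in mock. TCH3, a calmodulin-like calcium sensor, read 9.53, 9.44 and 9.36 in PLT4 dex, 7.97, 8.22 and 8.10 in PLT7 dex, and 9.54 to 10.01 in mock. Their differences between the lines were 1.67 ± 0.15 and 1.35 ± 0.11. AOS, which commits fatty acid hydroperoxides to jasmonate, read 6.67, 6.67 and 6.43 in PLT4 dex, 5.56, 5.43 and 5.41 in PLT7 dex, and 7.34 to 7.70 in mock (1.13 ± 0.10, adjusted p = 1.22e-05). The repressor gene JAZ1 read 6.46, 6.90 and 6.00 in PLT4 dex, 5.11, 5.30 and 5.25 in PLT7 dex, and 6.45 to 7.08 in mock (1.23 ± 0.20). LOX2, an early enzyme of the path, had a difference of 0.66 ± 0.49 that did not pass (adjusted p = 0.46), with mock samples spread from 5.46 to 8.08. ST2A, whose product sulfates hydroxyjasmonate and which stood outside the list, differed by 2.79 ± 0.17, the third largest of the 12 positive differences named.

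Light and elongation genes were higher in PLT4 dex for 6 of 13 members, with none lower and a median of 0.63. The called members are basic helix-loop-helix (bHLH) factors that promote cell elongation downstream of brassinosteroid and of darkness. BEE2 read 6.38, 6.46 and 6.01 in PLT4 dex, 4.55, 4.40 and 4.79 in PLT7 dex, and 8.41 to 8.57 in mock, so that both lines were below mock and the lines were 1.70 ± 0.12 apart (adjusted p = 2.08e-06). BEE3 and BEE1 differed by 0.97 ± 0.13 and 0.67, and the phytochrome-interacting factors PIL6 (PIF5) and PIF3 by 0.75 ± 0.09 and 0.70 ± 0.12. PIF4 had a difference of 0.36 and the light-signalling factor HY5 one of -0.02, neither of which passed.

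Genes of the entry into S phase leaned the other way. Of 25 genes of G1/S and DNA replication, 7 were lower in PLT4 dex and 1 higher, with a median of -0.25. E2F3 (E2FA), a factor that turns on replication genes, read 5.56, 5.10 and 5.48 in PLT4 dex, 6.36, 6.67 and 6.49 in PLT7 dex, and 4.66 to 4.99 in mock. RNR2A, a small subunit of ribonucleotide reductase, which makes deoxynucleotides, read 8.60, 8.53 and 8.67 in PLT4 dex, 9.52, 9.56 and 9.52 in PLT7 dex, and 7.34 to 7.65 in mock. In both genes the 3 groups did not overlap, with mock lowest and PLT7 dex highest, and the lines differed by -1.12 ± 0.13 and -0.93 ± 0.09. TSO2, a further small subunit of that enzyme, read 10.54, 10.43 and 10.41 in PLT4 dex, 11.10, 11.11 and 11.11 in PLT7 dex, and 9.90 to 10.21 in mock (-0.65 ± 0.09, adjusted p = 0.000303). The chromatin assembly gene FAS1 and the D-type cyclins CYCD4;1 and CYCD3;2 were called lower too, at -0.38, -0.43 and -0.38, the first not without PLT7 dex replicate 3 (adjusted p = 0.165) and the second not without PLT7 dex replicate 1 (0.167), each being called in 12 of 19 alternatives. The MCM helicase genes MCM2, MCM3, MCM4 and MCM5 had differences of -0.16, -0.30, -0.13 and -0.12 that did not pass. Against mock, 17 of the 25 were higher in PLT4 dex and 22 of 25 in PLT7 dex.

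The exception was CYCD1;1, a D-type cyclin, at 6.49, 6.13 and 6.28 in PLT4 dex, at 4.61, 5.54 and 5.03 in PLT7 dex, and at 5.62, 5.82, 5.63 and 5.74 in mock. All PLT4 dex samples were above and all PLT7 dex samples below mock, the shift of PLT4 dex being lost without its replicate 1 (adjusted p = 0.0684), with a difference of 1.24 ± 0.18 between the lines (adjusted p = 0.000395). Mitotic genes showed no such lean: 2 of 16 were higher, 1 was lower and the median was -0.02, with 11 of 16 higher than mock in PLT4 dex and 10 in PLT7 dex. AUR2, an Aurora kinase, and HIK, a cytokinesis kinesin, were higher by 0.52 ± 0.12 and 0.48 ± 0.15, the second called in 12 of 20 alternatives and lost without PLT7 dex replicate 1 (adjusted p = 0.0788), and the cyclin CYCB1;3 was lower at -0.49 ± 0.10 (adjusted p = 0.061 with all 18 arrays).

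Root stem cell niche genes went both ways, with 4 of 13 lower, 2 higher and a median of -0.04. RGF3, a peptide hormone of the family that maintains PLT protein gradients, read 4.86, 4.41 and 4.83 in PLT4 dex, 6.34, 6.10 and 6.38 in PLT7 dex, and 3.15 to 3.93 in mock. It rose over mock in both lines, more so in PLT7 dex (-1.57 ± 0.17 between the lines, adjusted p = 4.62e-05). HSFB4 (SCHIZORIZA), which specifies ground tissue and cap fate, was in the reverse order, with 6.50, 6.32 and 6.81 in PLT4 dex, 5.92, 5.83 and 5.74 in PLT7 dex, and 5.19 to 5.55 in mock (0.71 ± 0.13). PHB and SHR, regulators of radial pattern, were lower at -0.43 ± 0.08 and -0.43 ± 0.11, the second not with all 18 arrays (adjusted p = 0.081). Of 15 ribosome biogenesis genes, all were higher than mock in both lines, and 2 were higher in PLT4 dex than in PLT7 dex, RID2 and the nucleolin NUC-L1 at 0.45 ± 0.12 and 0.39 ± 0.11, both lost without PLT7 dex replicate 1 (adjusted p = 0.0785 and 0.112).

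Auxin genes differed between the lines in single members. YUC3 and YUC7, flavin monooxygenases that catalyse the last step of auxin synthesis, were lower in PLT4 dex. YUC3 read 6.65, 6.58 and 6.85 in PLT4 dex, 8.07, 7.92 and 7.65 in PLT7 dex, and 5.34 to 6.42 in mock. YUC7 read 4.15, 4.27 and 3.99 in PLT4 dex, 5.15, 4.80 and 5.41 in PLT7 dex, and 3.99 to 4.21 in mock, so PLT4 dex overlapped mock for YUC7 and not for YUC3. The differences between the lines were -1.18 ± 0.21 and -0.98 ± 0.13, and 3 of 17 biosynthesis genes were lower and 1 higher, CYP79B2, a call lost without PLT7 dex replicate 1 (adjusted p = 0.116). Among auxin transport genes 5 of 18 were higher and 2 lower. The importer LAX2 read 6.84, 6.77 and 6.81 in PLT4 dex, 8.08 ± 0.15 (SD, n = 3) in PLT7 dex, and 5.54 to 5.99 in mock, whereas its relative LAX1 read 7.15, 7.12 and 7.03 in PLT4 dex, 6.44, 6.39 and 6.32 in PLT7 dex, and 7.22 to 7.46 in mock. The 2 importers thus had opposite orders, at -1.27 ± 0.11 and 0.72 ± 0.09. EIR1 (PIN2), an efflux carrier of root epidermis, and ABCB4 were higher by 0.63 ± 0.13 and 0.69 ± 0.12.

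Auxin response genes were higher for 4 of 18 and lower for 3. DFL1 (GH3.6) and WES1 (GH3.5), enzymes that conjugate auxin to amino acids, were higher by 1.18 ± 0.08 and 1.09 ± 0.11. DFL1 read 9.01, 8.97 and 8.86 in PLT4 dex, 7.71, 7.72 and 7.89 in PLT7 dex, and 8.92 to 9.02 in mock, which put PLT4 dex at the level of mock (-0.03, adjusted p = 0.81). IAA30, an Aux/IAA-type protein, was above mock in both lines and lower in PLT4 dex, with 6.26, 6.57 and 6.42 in PLT4 dex, 7.26, 7.62 and 7.15 in PLT7 dex, and 4.66 to 4.97 in mock (-0.93 ± 0.13). Of the 6 lateral root initiation genes, LBD33 alone was called, at -0.65 ± 0.12.

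Of the lists, gibberellin genes were called in the largest number, 8 of 24 higher and 7 lower, with a median of 0.10. Without PLT7 dex replicate 1, 5 were called higher and 6 lower. GASA1, a gibberellin-regulated peptide gene, read 10.90, 10.59 and 10.79 in PLT4 dex, 11.94, 12.13 and 11.92 in PLT7 dex, and 9.28 to 9.97 in mock. GASA4, of the same peptide family, read 11.19, 11.10 and 11.16 in PLT4 dex, 10.28, 10.08 and 10.31 in PLT7 dex, and 11.38 to 11.72 in mock. PLT7 dex was thus the group farthest from mock in both, above it for GASA1 and below it for GASA4, and the lines differed by -1.24 ± 0.15 and 0.93 ± 0.10. The DELLA repressors also split, with RGL3 and RGL2 lower (-1.22 ± 0.11 and -0.55 ± 0.14) and RGL1, GAI and RGA1 higher (0.63, 0.55 and 0.29), the calls of RGL2, RGA1 and RGL1 being lost with all 18 arrays (adjusted p = 0.13, 0.251 and 0.149) and those of RGL2 and RGA1 also without PLT7 dex replicate 1 (0.0748 and 0.125). The receptors GID1A and GID1B were at -0.66 and 0.58, GID1B not called without that sample (0.0586). The synthesis gene GA3OX1, which makes the active hormone, read 6.43, 6.48 and 6.22 in PLT4 dex, 5.46, 5.67 and 5.51 in PLT7 dex, and 6.81 to 7.22 in mock (0.83 ± 0.12).

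Cytokinin genes gave 2 of 26 higher and 3 lower. CRF3, a cytokinin response factor of the AP2/ERF family, read 8.13, 8.26 and 8.37 in PLT4 dex, 7.31, 7.42 and 7.12 in PLT7 dex, and 4.35 to 4.80 in mock. It was far above mock in both lines (3.68 and 2.72) and 0.97 ± 0.12 higher in PLT4 dex. CRF5 read 6.55, 6.55 and 6.38 in PLT4 dex, 5.26, 5.16 and 5.47 in PLT7 dex, and 5.01 to 5.38 in mock, so that PLT7 dex overlapped mock, and CRF2 was lower, at -0.70 ± 0.14. Ethylene genes were higher for 4 of 12 with none lower. EFE (ACO4), which carries out the last step of ethylene synthesis, read 10.84, 10.88 and 10.58 in PLT4 dex, 9.71, 9.43 and 9.52 in PLT7 dex, and 11.58 to 11.78 in mock (1.21 ± 0.10). ACO1 at AT2G19590, an enzyme of the same step, was above mock in both lines, with 8.41, 8.41 and 8.59 in PLT4 dex, 7.81, 7.76 and 7.76 in PLT7 dex, and 5.34 to 5.87 in mock (0.69 ± 0.12, adjusted p = 0.12 with all 18 arrays).

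Aquaporins, the water channels of plasma membrane and vacuole, were higher for 5 of 14 and lower for 2. DELTA-TIP, a vacuolar channel, read 11.07, 11.10 and 10.71 in PLT4 dex, 9.70, 9.51 and 9.87 in PLT7 dex, and 12.44 to 12.74 in mock. PIP2A, of the plasma membrane, read 9.48, 9.41 and 9.06 in PLT4 dex, 8.61, 8.40 and 8.29 in PLT7 dex, and 11.89 to 12.03 in mock. Both lines were below mock and PLT7 dex further below, with differences of 1.27 ± 0.12 and 0.89 ± 0.12, neither called with all 18 arrays (adjusted p = 0.21 and 0.29). PIP2;5 was the reverse, at 6.47, 6.00 and 6.44 in PLT4 dex, at 7.84, 7.52 and 7.51 in PLT7 dex, and at 5.77 to 6.29 in mock (-1.32 ± 0.16). Against mock, 12 of 14 aquaporins were lower in each line, and none in PLT4 dex and 1 in PLT7 dex was higher.

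Of 11 flavonoid genes 5 were higher in PLT4 dex and 1, the regulator MYB111, was lower, a call lost without PLT7 dex replicate 1 (adjusted p = 0.0797). F3H, an early hydroxylase of the path, read 8.01, 8.03 and 7.31 in PLT4 dex, 5.76, 5.36 and 5.96 in PLT7 dex, and 7.30 to 8.33 in mock. PLT4 dex overlapped mock and PLT7 dex did not, with a difference of 2.09 ± 0.26 between the lines, while TT4, the chalcone synthase that begins the path, differed by 0.60 ± 0.15 (adjusted p = 0.015, but 0.0697 without PLT4 dex replicate 1). Indole glucosinolate genes, which make tryptophan-derived defence compounds, split evenly, 3 higher and 3 lower of 10. The side-chain methyltransferase IGMT1 read 5.90, 5.70 and 5.15 in PLT4 dex, 3.32, 3.53 and 3.55 in PLT7 dex, and 6.88 to 7.39 in mock (2.12 ± 0.18). The core enzyme CYP83B1 and the tailoring enzyme CYP81F2 were lower, at -0.90 ± 0.10 and -1.45 ± 0.21, and the regulator MYB51 was higher by 0.95 ± 0.12.

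Of 7 nitrate genes 1 was higher and 2 were lower, and of 5 iron genes 1 was higher and 1 lower. NRT1.5, a nitrate transporter that loads the xylem, read 5.99, 6.09 and 5.43 in PLT4 dex, 7.14, 6.85 and 6.76 in PLT7 dex, and 7.53 to 9.21 in mock (-1.08 ± 0.32), a call lost with all 18 arrays (adjusted p = 0.242) and without PLT7 dex replicate 1 (0.124). The nitrate reductases were in opposite order: NIA1 averaged 11.16 ± 0.15 in PLT4 dex, 11.97 ± 0.08 in PLT7 dex (SD, n = 3 each) and 11.09 ± 0.08 in mock (SD, n = 4), and NIA2 read 10.64, 10.75 and 10.60 in PLT4 dex, 9.89, 9.79 and 9.96 in PLT7 dex, and 11.15 to 11.28 in mock. The differences were -0.80 ± 0.09 and 0.78 ± 0.08. IRT1, the main iron importer of the root epidermis, read 3.26, 3.44 and 3.40 in PLT4 dex, 6.20, 4.40 and 6.44 in PLT7 dex, and 3.36 to 3.73 in mock. All PLT7 dex samples were above every mock sample, though the second by far less. The difference between the lines was -2.31 ± 0.38 (adjusted p = 0.000894). FER1, a ferritin that stores iron, read 11.11, 11.05 and 11.06 in PLT4 dex and 9.84, 9.81 and 9.99 in PLT7 dex (1.20 ± 0.22), with mock between 11.02 and 12.25, and was not called with all 18 arrays (adjusted p = 0.11). In PLT1 replicates 1 and 2 and the PLT3 and PLT5 samples FER1 stood between 9.4 and 10.2, which was not tested. HB1, a haemoglobin of low oxygen, was higher by 1.38 ± 0.20 among the 3 of 10 hypoxia genes called higher, and the other two, AT4G33070 and SUS4, were lost without PLT7 dex replicate 1.

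Markers of organs and of embryo identity were compared for the whole list, as the mean over its members in each sample. Photosynthesis genes averaged 12.89 to 12.95 in PLT4 dex, 12.86 to 12.93 in PLT7 dex and 13.1 in each mock sample, and 1 of 14 was called between the lines, LHCB3 at 0.28 ± 0.08 (adjusted p = 0.0325), with none called without PLT7 dex replicate 1 (0.071). Root hair and epidermis genes averaged 4.48 to 4.62 in PLT4 dex, 4.34 to 4.43 in PLT7 dex and 4.69 to 4.76 in mock, and 2 of 15 were called, both higher: PRP3, a wall protein of root hairs, by 0.92 ± 0.16 and MYB66 (WEREWOLF), which sets non-hair fate, by 0.72 ± 0.10. The part of tissue makeup in the other results was not tested.

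Embryo lists were examined because BBM is known for embryo induction. Of 13 embryo regulators 1 was called between the lines, RAP2.4 (WIND1), a dedifferentiation factor, at 0.59 ± 0.09, and the list averaged 4.27 to 4.30 in PLT4 dex, 4.23 to 4.31 in PLT7 dex and 4.22 to 4.37 in mock. RAP2.4 was below mock in both lines, at -0.50 in PLT4 dex (adjusted p = 0.00052) and -1.09 in PLT7 dex (adjusted p = 4.41e-07). ABI3, a seed maturation regulator, read 3.52, 3.47 and 3.59 in PLT4 dex and 3.54, 3.86 and 3.52 in PLT7 dex. None of 13 seed storage and oil body genes was called at an adjusted p under 0.05 in the limma fit, with a median difference of -0.15, although the list averaged 3.89 to 4.04 in PLT4 dex, 4.17 to 4.39 in PLT7 dex and 4.18 to 5.22 in mock. The lines did not overlap in this average. Against mock, 6 of the 13 were lower in PLT4 dex and 2 in PLT7 dex. CRA1, a seed storage globulin, read 5.32, 5.94 and 4.54 in PLT4 dex, 7.05, 6.67 and 6.56 in PLT7 dex, and 8.54, 7.48, 6.11 and 8.64 in mock. The lines did not overlap for it, but the difference of -1.49 ± 0.54 did not pass (adjusted p = 0.0834, with 0.28 without PLT4 dex replicate 3). PER1, a seed peroxiredoxin, read 4.49, 4.31 and 4.12 in PLT4 dex, 5.17, 5.50 and 5.14 in PLT7 dex, and 4.54 to 6.63 in mock, again without overlap between the lines and without passing (-0.96 ± 0.43, adjusted p = 0.166). Such a lack of overlap was common. All 3 PLT4 dex samples lay below all 3 PLT7 dex samples for 17.7% of all probe sets, and above them for 18.8%.

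Shoot genes gave 3 of 17 higher and none lower. YAB3, a factor of the outer leaf side, read 7.50, 7.56 and 7.62 in PLT4 dex, 6.45, 6.36 and 6.60 in PLT7 dex, and 6.88 to 7.07 in mock, above it in PLT4 dex and below it in PLT7 dex (1.09 ± 0.09). AS1, which represses meristem genes in leaves, differed by 0.69 ± 0.11, and KNAT1, a meristem homeobox gene, by 0.46 ± 0.14, a call lost without PLT7 dex replicate 1 (adjusted p = 0.145). Unlike YAB3, these genes were below mock in both lines. AS1 was at -0.72 in PLT4 dex and -1.41 in PLT7 dex. KNAT1 was at -0.45 and -0.91, the shift of PLT4 dex being lost without its replicate 1 (adjusted p = 0.0794). The 10 growth-regulating factors gave 2 higher, GRF7 at AT5G53660 (0.69 ± 0.18) and GRF8 at AT4G24150 (0.42 ± 0.10), GRF8 lost without PLT7 dex replicate 1 (adjusted p = 0.0542) and GRF7 without PLT7 dex replicate 3 (0.0819). Clock genes gave 2 of 16, CDF1 (0.38 ± 0.11) and AT3G54500 (0.63 ± 0.19), both lost without PLT7 dex replicate 1, when 1 other member was called. Aliphatic glucosinolates gave 1 of 13, their regulator MYB28 (0.81 ± 0.13, adjusted p = 0.2 with all 18 arrays), and salicylate defence 1 higher, WRKY70 (0.76 ± 0.15), and 2 lower of 10, EDS5 and EDS1 (-0.69 ± 0.12 and -0.47 ± 0.09). WRKY70 and EDS1 are regulators of that defence, and EDS5 exports the precursor of salicylate from the chloroplast.

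Some genes were on opposite sides of mock in the lines. Of the called genes with a symbol, 35 had every PLT4 dex sample above and every PLT7 dex sample below every mock sample. For 40 such genes the order was the reverse. Genes without a symbol and probe sets shared between genes were left out of these counts. The share of all probe sets with either pattern was therefore not counted. The first set held ST2A, at 7.75, 7.82 and 7.65 in PLT4 dex, at 4.83, 5.26 and 4.76 in PLT7 dex, and at 6.55, 6.13, 6.08 and 6.73 in mock. It held PAL3, a phenylalanine ammonia-lyase, at 7.33, 7.40 and 7.20 in PLT4 dex, at 5.79, 5.74 and 5.88 in PLT7 dex, and at 5.98 to 6.36 in mock. UGT74E2, which glycosylates indole-butyric acid, the organ size gene ORS1 and the aspartic protease PCS1 followed, with differences between the lines of 2.03 ± 0.24, 1.85 ± 0.22 and 1.63 ± 0.10.

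In the second set, PLP6, a patatin-like lipid acyl hydrolase, was at 5.66, 5.61 and 5.44 in PLT4 dex, at 7.20, 7.34 and 7.32 in PLT7 dex, and at 5.83 to 6.02 in mock. VLN4, an actin-bundling villin, was at 6.45, 6.32 and 6.49 in PLT4 dex, at 8.10 ± 0.09 (SD, n = 3) in PLT7 dex, and at 6.75 to 6.95 in mock. Their lack of overlap with mock and between the lines was the condition for this set. The differences between the lines were -1.72 ± 0.09 and -1.68 ± 0.08. PLT1 replicates 1 and 2 were also high, at 7.0 to 7.1 for PLP6 and 8.5 to 8.6 for VLN4. The PLT3 and PLT5 samples stood at 5.3 to 5.6 for PLP6 and 6.4 to 6.7 for VLN4. Levels in these other lines were not tested. The kinase gene STY46, NPGR2, a calmodulin-binding protein, and IQD14, of the calmodulin-binding IQD family, had differences of -1.37 ± 0.16, -1.30 ± 0.08 and -1.30 ± 0.08, and for STY46 and NPGR2 the shift of PLT4 dex from mock did not pass by itself (adjusted p = 0.1 and 0.097).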

How the data were processed

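The deposited values are log2 expression per probe set with 1 column per array, made by the authors with RMA and limma 3.24.15 per the submitters' processing notes, which give no role or order. RMA subtracts background, forces the arrays onto 1 distribution and combines the probes of a set, so a shift shared by most genes would be removed and differences near background are compressed. No detection calls were given and the build of the genome is not stated in the sources, so no coordinates are printed. Of 21494 rows, 64 control rows were used only for RNA quality. Of 21430 probe sets, 21231 matched a locus of the RefSeq gene table (assembly TAIR10.1, used for names only), 199 did not, and 221 shared their values with another, which left 21120 of exactly 1 gene. Matching sequences were not used here.

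Samples were grouped by title. The growth notes name 3 additional mock flasks and the titles 4 mock samples, so the origin of 1 is not given. The 10 arrays of PLT4 dex, PLT7 dex and PLT4 mock entered 1 limma fit (limma 3.58.1, R 4.3.3) in which each group had its own coefficient, without covariates. Tests were moderated and two-sided, with p-values adjusted by Benjamini-Hochberg over all probe sets. The other lines were left out of the spread, since a library of the PLT1 line goes against its label. Labels do not say that samples came from separate plantings beyond separate flasks, so p-values measure the spread between flasks. The number of arrays limits the precision. Simulated data had 200 of 21430 probe sets changed, far fewer than the 3425 called in the data. In them 50% of 100 probe sets changed by 0.5 and 96% of 100 changed by 1 (log2) were recovered for this comparison, and 4.58% of calls were false.

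The members, lists and rules were chosen with earlier results of these data known. The 33 lists hold 504 loci, 461 of them measured, with 1 locus listed in both of 2 lists, and no test of a list was made. The genes eligible for naming were the PLT/AIL family (8 genes), 12 called genes of largest positive and 12 of largest negative difference (no overlap between the lines, 1 gene, a symbol, BBM and AIL7 left out), up to 4 called members of each list, up to 2 others with values only where fewer than 2 were called, and the 5 largest on opposite sides of mock in each direction. One gene of largest negative difference is not reported here. The text also names, with values seen first, GPAT5, IRX1, IRX3, CESA4, VND7, EXPA1, EXPA5, XTH17, XTH18, LOX2, BEE1, PIF4, HY5, FAS1, CYCD4;1, CYCD3;2, the MCM genes, RGL1, RGL2, GAI, RGA1, GID1A, GID1B and MYB111. Alternatives were each sample left out, the replicate number as a block, fits on 6, 17 or 18 arrays, median centring, quantile normalization, array weights, a variance trend with robust fitting, a 2-fold minimum, probe sets of 1 gene, and dim probe sets left out.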

Additional observations from a re-analysis of the deposited data

Results flagged for a closer look

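In 11 of the 140 named genes the lines lay on opposite sides of mock with both shifts passing the test. Of these, 8 were chosen for naming because all samples of the lines lay on opposite sides of every mock sample, so the 11 are a description. That rule does not ask that both shifts pass. Among genes with a symbol, 35 met it in one direction and 40 in the other. The share of all probe sets with both shifts passing was not counted. AIL5, CYCD1;1 and YAB3 were chosen otherwise. AIL5 differed by 0.982 (0.488 against mock in PLT4 dex, -0.494 in PLT7 dex, adjusted p = 0.000436 between the lines). ST2A differed by 2.79 (1.37 and -1.43), UGT74E2 by 2.03 (0.828 and -1.2), ORS1 by 1.85 (0.871 and -0.981), PCS1 by 1.63 (0.997 and -0.633) and PAL3 by 1.51 (1.16 and -0.345). CYCD1;1 differed by 1.24 (0.598 and -0.642) and YAB3 by 1.09 (0.603 and -0.489). In the other direction, PLP6 differed by -1.72 (-0.363 in PLT4 dex and 1.35 in PLT7 dex), VLN4 by -1.68 (-0.447 and 1.24) and IQD14 by -1.3 (-0.48 and 0.818). A shift from mock was lost under at least 1 alternative for VLN4 and UGT74E2 in PLT4 dex (adjusted p = 0.245 and 0.119 with all 18 arrays), PAL3 in PLT7 dex (0.0561 with all 18 arrays), CYCD1;1 in PLT4 dex (0.0684 without PLT4 dex replicate 1), and AIL5 in both lines (0.0707 without PLT4 dex replicate 3 and 0.0541 without PLT7 dex replicate 3).

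A mock sample stood apart from the other mock samples in 5 of 140 genes, where chance alone marks about 1 in 20. Mock replicate 1 had AIL6 at 4.59 (the others 4.73 to 4.76) and LAX1 at 7.22 (7.42 to 7.46), replicate 3 had XTH19 at 8.5 (8.82 to 8.88), and replicate 4 had CYP86A1 at 6.8 (7.36 to 7.46) and EDS5 at 5.78 (5.39 to 5.45). Groups of 3 are too small for this comparison, so PLT7 dex replicate 1, with AIL6 at 6.49, was not tested by it.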

How the results depend on the processing

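Between PLT4 dex and PLT7 dex the count of 3425 called probe sets was 4586 with the 6 arrays of these lines, 2475 with all 18 arrays, 3896 with 17, 4798 with array weights, 3548 with median centring, 2944 of 10716 with dim probe sets left out, and 2500 to 3880 with each sample left out. Against mock, with each sample left out, 6695 to 8231 were called for PLT4 dex and 8678 to 9856 for PLT7 dex. A 2-fold minimum moved the 3 counts to 510, 1136 and 2008. With the replicate number as a block 3799, 7778 and 9716 were called, but the numbers do not pair the samples: deviations of same-numbered samples of the lines correlated by 0.0214, -0.0325 and -0.149. Higher calls made up 52.9% as reported, 44.6% after median centring, 49.6% after quantile normalization and 51.6% to 54.7% in the other settings. Of the 124 named genes called, 61 were under 2-fold and 18 were lost with all 18 arrays. Setting aside the 2-fold minimum, 95 were called under every one of up to 20 alternatives (58 with that minimum too), none changed sign while called, and 9 of the 17 not called were called in some alternative. Differences of 0.5 were found in 50% of cases in a simulation with only 200 probe sets changed, so the rate in the data itself is not known. A gene or list with no call is not shown to be alike in the lines. RMA limits what can be said of dim genes such as SUS4 and XIC in mock, and the single transgenic line of each factor limits all comparisons.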
